A study of Mus musculus with 12 samples.

Results

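The major urinary protein genes Mup3, Mup6, Mup20 and Mup21 were described in mouse liver. They are 4 of the 15140 genes in the deposited table of read counts, and they were picked by symbol with earlier results of the same libraries in view. Their difference between the genotypes was part of that choice, so it is given here as a description, without a test. Liver mRNA, selected by its polyA tail, was sequenced in 12 libraries from male mice. In the KO group (6 libraries), the gene for prohibitin 1, a scaffold protein of the inner mitochondrial membrane, was deleted in adipocytes; the WT group (6 libraries) was wild type. All mice of both groups began a high-fat diet with 60% of its calories from fat at 7 to 8 weeks of age and stayed on it for 3 months, so no library represents a lean liver. The Cre line behind the deletion is not given in the sources used here, and neither is the animal behind each library, so the spread within a group is the spread between libraries.

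Major urinary proteins are small secreted lipocalins, barrel-shaped proteins that hold a greasy ligand in a central pocket. Hepatocytes make them in very large amounts, and in mice they pass from blood to urine, where they carry volatile pheromones and mark the identity and sex of the animal. Adult males make more than females, and the genes depend on the male pattern of growth hormone pulses acting through STAT5b, and on sex steroids, glucocorticoid and thyroid hormone. Mup20 encodes darcin, a male pheromone protein. The family arose by recent duplication on chromosome 4, and many of its copies are almost identical.

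The 4 genes stand on chromosome 4 (GRCm38), inside the Mup cluster that spans chr4:59956804-62150863 and holds 22 numbered genes and 27 annotated pseudogenes in GENCODE M21. Mup6 (ENSMUSG00000078689, chr4:59964294-60007274) lies near the low end of the cluster and is the 1 gene of 21 numbered Mup genes in the table on the plus strand. Mup20 (ENSMUSG00000078672, chr4:62050234-62054158), Mup3 (ENSMUSG00000066154, chr4:62083476-62087342) and Mup21 (ENSMUSG00000066153, chr4:62147932-62150863) stand at the high end, on the minus strand. No other annotated gene overlaps any of the 4.

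How far reads can tell these genes apart depends on their sequence. The same stretch of coding sequence is shown for the 4 genes and for 3 of the near-identical copies (Mup7, Mup11 and Mup14), aligned to coding bases 201 to 280 of Mup7; capitals mark bases that differ from Mup7. The sequences were read from GENCODE M21 transcripts (GRCm38).
Mup3: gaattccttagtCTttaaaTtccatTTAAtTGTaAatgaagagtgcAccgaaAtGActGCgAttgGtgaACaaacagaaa
Mup6: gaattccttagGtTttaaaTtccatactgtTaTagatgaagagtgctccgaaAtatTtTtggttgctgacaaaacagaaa
Mup20: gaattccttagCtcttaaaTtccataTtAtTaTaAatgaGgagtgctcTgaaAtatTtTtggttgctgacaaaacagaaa
Mup21: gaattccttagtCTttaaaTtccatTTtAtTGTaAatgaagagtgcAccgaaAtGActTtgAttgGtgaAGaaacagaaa
Mup7: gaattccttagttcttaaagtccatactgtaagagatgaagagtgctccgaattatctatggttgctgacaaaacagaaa
Mup11: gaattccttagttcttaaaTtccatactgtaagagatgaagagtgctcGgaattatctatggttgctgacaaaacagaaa
Mup14: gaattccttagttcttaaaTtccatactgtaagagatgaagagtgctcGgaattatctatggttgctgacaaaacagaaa
Over these 80 bases Mup3 differs from Mup7 at 21 bases, Mup21 at 19, Mup20 at 12 and Mup6 at 8. Mup11 and Mup14 each differ from Mup7 at 2.

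Over the whole coding sequence the 4 genes differed more from the other copies than most of those differ from each other. Mup3 was 83.2% to 86.2% identical to the 18 other numbered Mup genes, Mup21 83.6% to 86.7%, Mup6 89.4% to 91.8% and Mup20 90.6% to 91.5%. Without Mup4 and Mup5, the other 16 genes were 98.2% to 99.8% identical to each other (median 99.0%). Within the group, Mup3 and Mup21 were the closest pair, at 95.4% identity. The other pairs were 83.7% (Mup3 and Mup6), 84.6% (Mup6 and Mup21), 87.2% (Mup3 and Mup20), 87.6% (Mup20 and Mup21) and 90% (Mup6 and Mup20) identical. The longest stretch that Mup3 and Mup21 share without a difference is 125 bases, coding bases 115 to 239 of Mup3 and 106 to 230 of Mup21, and a short read inside it could come from either gene.
Mup3 and Mup21: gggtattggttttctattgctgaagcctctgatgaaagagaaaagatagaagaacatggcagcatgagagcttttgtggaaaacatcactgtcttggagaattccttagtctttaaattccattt

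Each transcript was then cut into overlapping windows, and each window was looked for in all GENCODE M21 transcripts, on both strands. At 100 bases, 100% of Mup6 windows, 97.1% of Mup3 windows and 95.5% of Mup21 windows were found in no other gene. Only 61.2% of Mup20 windows were, and the other 38.8% were shared with 1 gene, the pseudogene Mup-ps19. Aligned to Mup-ps19, Mup20 was identical at 519 of 519 aligned bases, gaps not counted, with a longest unbroken run of 391 bases. Among the other 17 numbered Mup genes in the table the median was 14.6%, with 2 genes that had no window of their own. Longer windows raised these shares and shorter ones lowered them: at 150 bases all windows of Mup3, Mup6 and Mup21 and 68.9% of those of Mup20 were unique, and at 50 bases the shares were 84.4% for Mup3, 95.7% for Mup6, 80.7% for Mup21 and 49.5% for Mup20. The windows count exact matches only, so reads placed with mismatches are not covered. No source used here gives the read length or says what was done with reads that fit several genes. At these lengths most of the sequence of Mup3, Mup6 and Mup21 is found in 1 gene. Counts of Mup20 are uncertain against Mup-ps19, and those of the other numbered genes are uncertain against each other. Among the latter Mup5 shares least, with 98.7% of its windows to itself at 100 bases and 82.9% at 50. Whether reads of more abundant copies were placed in Mup5, which has few counts, was not tested.

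**Figure D1:**
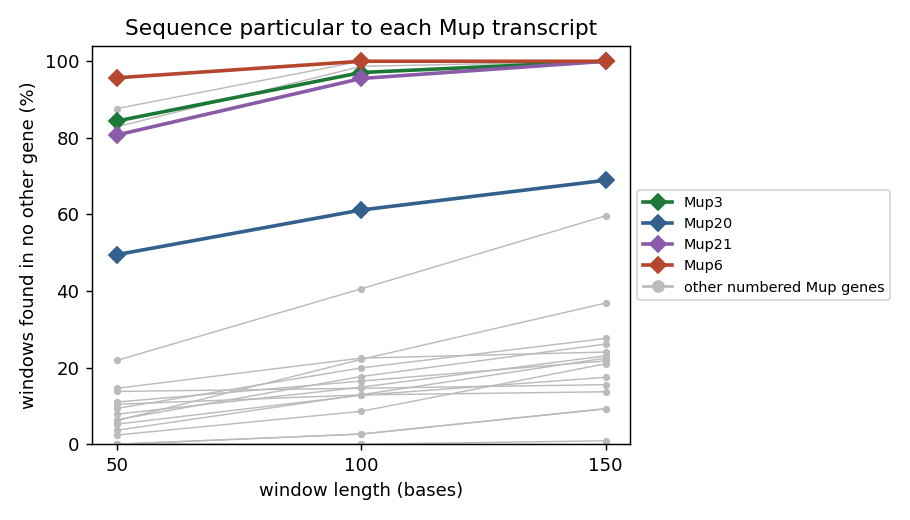
Share of transcript windows found in no other gene (y axis, %) at window lengths of 50, 100 and 150 bases (x axis). Coloured lines are Mup3, Mup6, Mup20 and Mup21, and each grey line is 1 other numbered Mup gene; Mup3, Mup6 and Mup21 reach 100% at 150 bases and Mup20 reaches 68.9%.

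Promoter sequence was at hand for 3 of the 4 genes, with no entry for Mup20. The 250 bases before the transcription start in RefSeq (GRCm38.p6) are printed for them, since the family answers to hormones. Capitals mark TGTTCT, a short motif recognised by steroid hormone receptors such as the glucocorticoid receptor, and the TATA-like motifs TATATAA and TATAAA, which overlap each other in Mup6. Their positions are chr4:60003231-60003480 on the plus strand for Mup6, and chr4:62087318-62087567 and chr4:62150842-62151091 on the minus strand for Mup3 and Mup21.
Mup6: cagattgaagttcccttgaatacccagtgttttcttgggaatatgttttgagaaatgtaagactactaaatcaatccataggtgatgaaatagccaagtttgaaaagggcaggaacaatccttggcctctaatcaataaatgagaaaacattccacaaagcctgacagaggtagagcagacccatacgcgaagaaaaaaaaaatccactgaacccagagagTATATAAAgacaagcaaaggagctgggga
Mup3: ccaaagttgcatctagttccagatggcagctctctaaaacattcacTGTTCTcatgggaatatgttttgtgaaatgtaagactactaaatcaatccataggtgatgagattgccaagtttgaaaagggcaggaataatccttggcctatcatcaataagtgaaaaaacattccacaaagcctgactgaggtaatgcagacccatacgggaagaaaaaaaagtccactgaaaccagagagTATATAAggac
Mup21: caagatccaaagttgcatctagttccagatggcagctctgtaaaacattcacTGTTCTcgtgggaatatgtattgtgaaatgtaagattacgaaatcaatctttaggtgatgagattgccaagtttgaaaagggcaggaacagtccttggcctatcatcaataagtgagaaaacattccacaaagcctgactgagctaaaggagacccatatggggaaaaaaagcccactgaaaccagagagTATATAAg
The Mup3 and Mup21 promoters were 93.4% identical, those of Mup3 and Mup6 88.3%, and those of Mup6 and Mup21 84%. RefSeq and GENCODE M21 place the starts of these genes differently. As GENCODE places them, the printed stretches of Mup3 and Mup21 run into their genes, and that of Mup6 lies wholly inside its gene. The Mup6 transcript used above starts at 60003438. On the minus strand, the Mup3 and Mup21 genes start at 62087342 and 62150863, and the Mup3 transcript used above starts at 62087261. Counted from the RefSeq start, TATATAA began 29 bases before that of Mup6, 11 before that of Mup3 and 8 before that of Mup21. By the GENCODE positions it lies inside each gene, but before the start of the Mup3 transcript used above. On either strand it was found in 11 of 14 Mup promoters and in 3.04% of 32851 mouse promoters of the same length; it was chosen after these sequences had been seen, and TATAAA, the motif first searched, was found in 2 of 14 against 12.4%. TGTTCT was found in Mup3 (204 bases before the start) and Mup21 (198 before), 2 of the 14 Mup promoters, against 16.1% of all. TTCNNNGAA, the motif bound by STAT5, was found in 0 of the 14 and in 7.02% of all; these letters are only absent from this window.

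The 4 genes differed widely in level. Levels are given as CPM, counts scaled to a library's total and between libraries by the trimmed mean of M values (TMM). Per kilobase of exon, Mup3 stood highest, at 6683 ± 1771 CPM per kb in KO and 6391 ± 1607 in WT (mean ± SD, n = 6 each, as for all means here). Mup20 followed, at 3440 ± 1071 in KO and 1524 ± 856 in WT on the same scale. The 2 did not overlap in WT, where the highest Mup20 library (2922) lay below the lowest Mup3 library (4126), but they did in KO, where the highest Mup20 library (5264) lay above the lowest Mup3 library (4144). Mup21 was next, at 354 ± 200 in KO and 243 ± 196 in WT, and its highest WT library (632) reached just above the lowest WT library of Mup20 (618). Mup6 was lowest, at 2.32 ± 0.628 CPM per kb in KO and 0.853 ± 0.372 in WT, far below the range of the other 3. By mean CPM, Mup3 ranked 9 among the 15140 genes, Mup20 48, Mup21 648 and Mup6 11990.

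Mup3 had close to the same mean in both genotypes, 7138 ± 1891 CPM in KO and 6826 ± 1716 in WT. Its CPM in KO libraries 1 to 6 was 5930, 4426, 8849, 6654, 7415 and 9551. In WT libraries 1 to 6 it was 7507, 4406, 9542, 6241, 6076 and 7182. The groups overlapped almost completely: 5 of the 6 KO libraries lay inside the WT range. The log2 fold change, KO against WT, was 0.06 ± 0.20 (SE), and its sign turned when KO library 6 (-0.04), KO library 3 (-0.02) or WT library 2 (-0.03) was left out.

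Mup20, the darcin gene, was higher in KO. Its CPM in KO libraries 1 to 6 was 3737, 2790, 2329, 2260, 4885 and 3153. In WT libraries 1 to 6 it was 1289, 649, 1816, 574, 1448 and 2712. Of the 6 KO libraries, 4 lay above every WT library, and WT library 6 lay above KO libraries 3 and 4. The mean was 3192 ± 994 in KO and 1415 ± 794 in WT, a log2 fold change of 1.17 ± 0.36 (SE), or 2.26-fold. The pseudogene Mup-ps19, which shares sequence with it, held 2.02% to 4.61% as many counts as Mup20 in each library, and with the 2 rows summed the log2 fold change was 1.17. How many shared reads were dropped before counting cannot be read from the table.

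Mup21 varied most within a group, with a pooled SD of 0.87 on the log2 CPM scale against 0.68 for Mup20, 0.53 for Mup6 and 0.39 for Mup3. Its CPM in KO libraries 1 to 6 was 326, 125, 245, 97.1, 185 and 458. In WT libraries 1 to 6 it was 110, 70.9, 428, 113, 97.5 and 169. One KO library (1 of 6) lay above all WT libraries, and WT library 3 lay above every KO library but that 1. The mean was 239 ± 135 in KO and 165 ± 133 in WT, a log2 fold change of 0.54 ± 0.49 (SE). Single libraries moved it in both directions: the value was 0.24 without KO library 6, the highest of its group, and 1.10 without WT library 3, the highest of the WT group.

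Mup6, the rarest of the 4, was the 1 gene of 4 whose groups did not overlap. Its CPM in KO libraries 1 to 6 was 2.03, 1.68, 3.41, 2.25, 2.64 and 1.89. In WT libraries 1 to 6 it was 1.36, 0.511, 1.00, 0.427, 1.14 and 0.676. All 6 KO libraries lay above all 6 WT libraries, as they did for 1.29% of the 15000 genes tested; in either direction, groups did not overlap for 2.53%. The mean was 2.32 ± 0.628 in KO and 0.853 ± 0.372 in WT, a log2 fold change of 1.44 ± 0.29 (SE), or 2.72-fold. These levels rest on 64 to 111 counts in each KO library and 16 to 45 in each WT library, out of totals of 30348123 to 40828767 per library. Over the 12 libraries Mup3 had 172345 to 380461 counts, Mup20 21515 to 181095 and Mup21 2774 to 17062. Whether reads of more abundant Mup genes were placed in Mup6 with mismatches was not tested. The Mup6 windows above covered a transcript of 926 bases, while the exons of the gene hold 1000.

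The authors' deposited table gave log2 fold changes of 0.07 for Mup3 (SE 0.25), 1.45 for Mup6 (SE 0.30), 1.18 for Mup20 (SE 0.36) and 0.54 for Mup21 (SE 0.52). In whole liver, fewer cells that make a transcript and less of it per cell cannot be told apart.

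**Figure D2:**
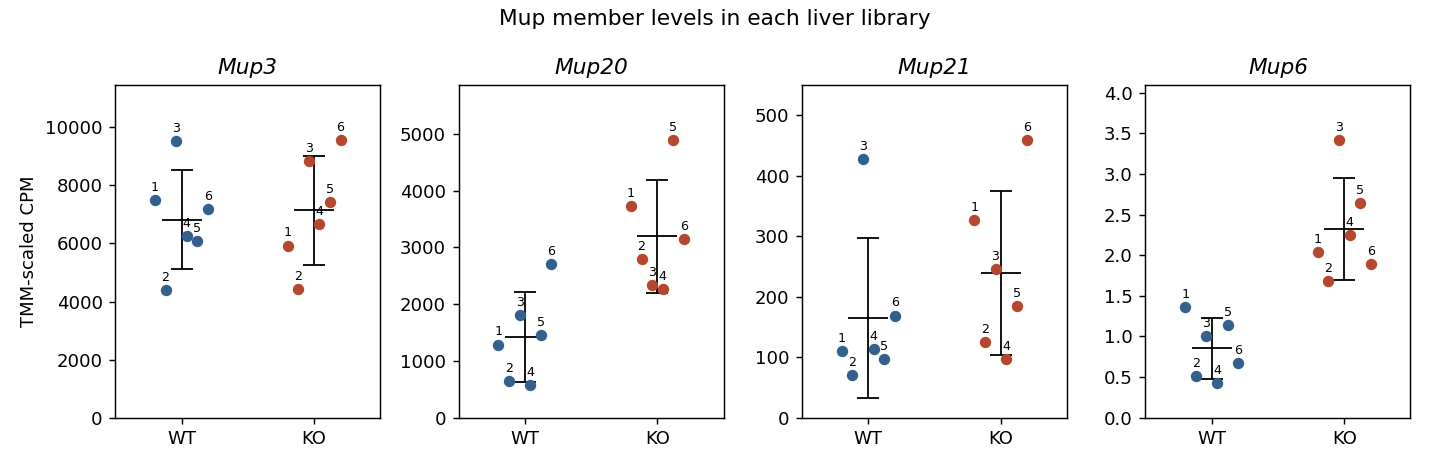
TMM-scaled CPM (y axis, a separate scale for each gene) of Mup3, Mup20, Mup21 and Mup6 in WT and KO libraries (x axis). Points are libraries with their numbers, and bars are the mean ± SD (n = 6); Mup6 is the panel with no overlap, and in each panel the lowest point is WT library 2 or WT library 4.

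The lowest library of each of the 4 genes was a WT one: WT library 2 for Mup3 and Mup21, WT library 4 for Mup6 and Mup20. One of these 2 libraries was the lowest for 14.7% of the 15000 genes. With both left out, an alternative chosen after they were seen to be low, the log2 fold changes were 1.15 for Mup6, 0.81 for Mup20, 0.25 for Mup21 and -0.09 for Mup3. The same step left 7 genes past the threshold, where all 12 libraries gave 396, or 2.64% of those tested (edgeR's quasi-likelihood test, p under 0.05 after Benjamini-Hochberg adjustment); it left 4 WT libraries in place of 6.

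Ratios between counts of the same library do not depend on scaling between libraries. The log2 ratio of Mup6 to Mup3 counts was -11.58 ± 0.36 in KO and -13.05 ± 0.56 in WT, without overlap. That of Mup20 to Mup3 was -1.17 ± 0.59 in KO and -2.44 ± 0.68 in WT; 3 KO libraries lay above all WT libraries and 5 WT libraries below all KO libraries. That of Mup21 to Mup3 was -5.05 ± 0.69 in KO and -5.61 ± 0.60 in WT. Relative to Mup3 of the same library, Mup6 was thus higher in every KO library than in any WT library. The margin was narrow, from -12.38 in WT library 5 to -12.30 in KO library 6, and rests on the few Mup6 counts. The Mup20 groups overlapped in part and the Mup21 groups widely.

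**Figure D3:**
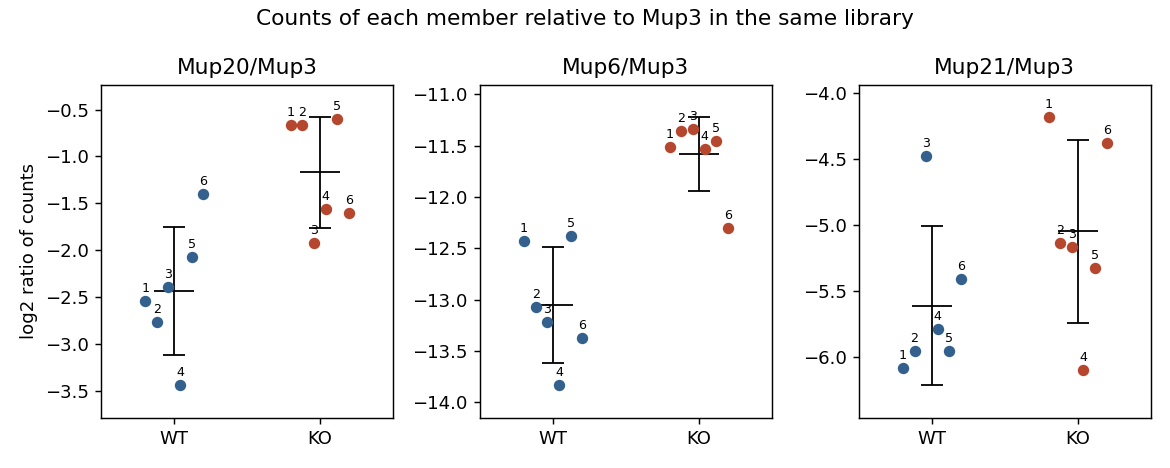
Log2 ratio of the counts of Mup20, Mup6 and Mup21 to those of Mup3 in the same library (y axis, a separate scale in each panel) for WT and KO libraries (x axis). Points are libraries with their numbers and bars the mean ± SD (n = 6). The groups are narrowly apart for Mup6 and overlap for Mup20 and Mup21.

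As a whole, Mup rows took 2.94% ± 0.575 of all counts in KO (2.26% to 3.82%) and 2.04% ± 0.694 in WT (2.65% at most, and 0.853% in WT library 2). The log2 fold change of the summed counts was 0.55, and 0.30 without WT libraries 2 and 4. Within the Mup counts, Mup3 held 23.9% ± 2.77 in KO and 35.7% ± 8.59 in WT, with the highest share, 51.0%, in WT library 2. Mup20 held 11.1% ± 3.70 in KO and 6.95% ± 3.00 in WT, and Mup21 0.801% ± 0.421 and 0.791% ± 0.424. Mup6 held 0.00781% ± 0.00107 in KO and 0.00429% ± 0.00131 in WT. WT library 2 thus combined the smallest Mup total with the largest part of it in Mup3.

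**Figure D4:**
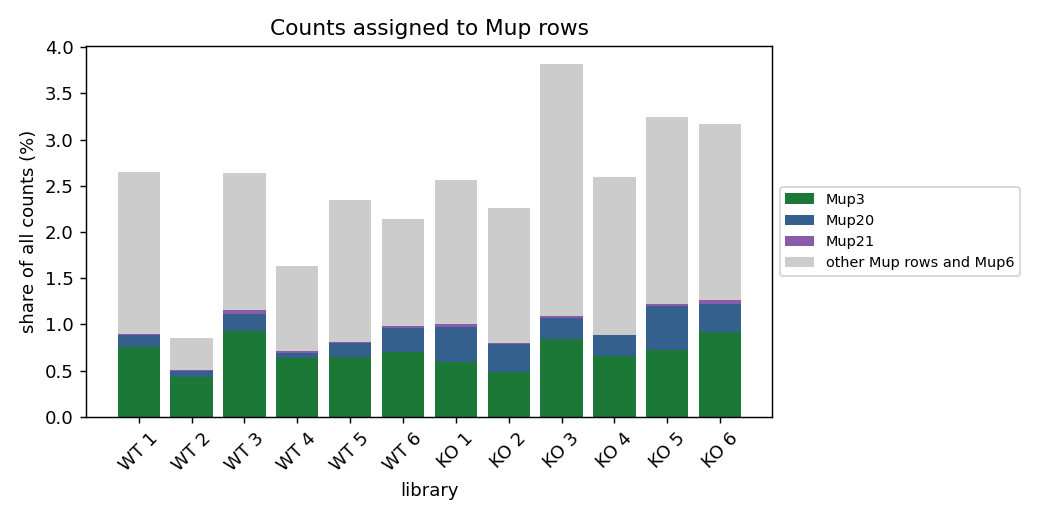
Share of all counts of a library that was assigned to Mup rows (y axis, %) in each WT and KO library (x axis). Colours are Mup3, Mup20 and Mup21, and grey is all other Mup rows with Mup6; WT library 2 has the shortest bar (0.853%) and KO library 3 the tallest (3.82%).

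The other members of the family give the setting for these values. Their counts are uncertain as said above, and Mup5 shares least sequence among them. All 17 other numbered Mup genes had a positive log2 fold change, with a median of 0.92 against 0.00 over all 15000 genes, 50.6% of which were positive. The range ran from 0.41 (Mup22) to 2.17 (Mup5). Mup5 was low, at 1.45 ± 1.56 CPM in KO and 0.324 ± 0.129 in WT, with 3 of 6 KO libraries inside the WT range. The edgeR test called 0 of the 17 (lowest adjusted p 0.0898), with 9 at an unadjusted p under 0.05, as were 21.2% of all genes. DESeq2 called 5, all higher in KO, and limma-voom called 1; over all genes these tools called 8.47% and 2.63%. Mup9, a copy of the near-identical kind, was at 681 ± 287 CPM in KO and 168 ± 159 in WT, with 6 of 6 KO libraries above every WT library and a log2 fold change of 2.02 ± 0.61 (SE, edgeR adjusted p = 0.0948). Of the 17, 14 were lowest in WT library 2, as were 7.72% of all genes tested. Most of these genes share sequence, so their values may not be separate observations. Of the 15 Mup pseudogenes, 11 had a positive log2 fold change (median 0.28), and edgeR called 0 (5 at an unadjusted p under 0.05), DESeq2 4 and limma-voom 0.

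**Figure D5:**
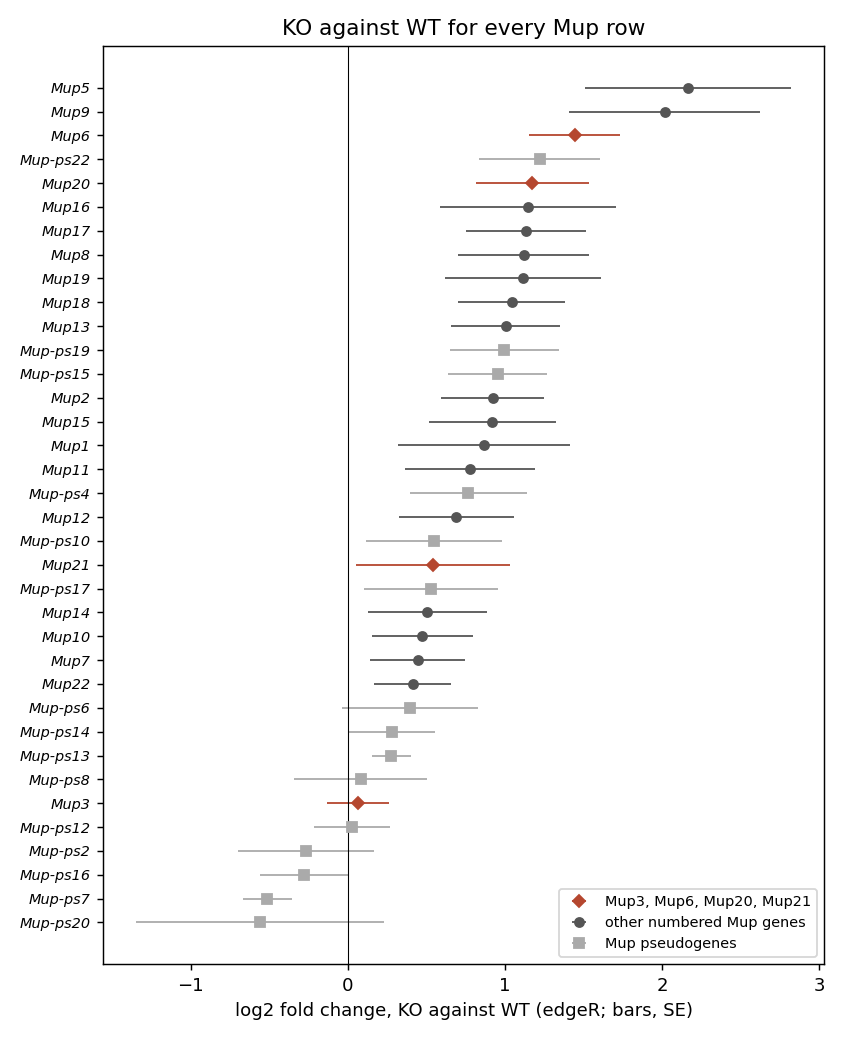
Log2 fold change, KO against WT (x axis; bars are the SE of the edgeR fit), for every Mup row of the table (y axis). Red diamonds are Mup3, Mup6, Mup20 and Mup21, dark circles the 17 other numbered genes and grey squares the 15 pseudogenes; Mup3 (0.06) lies below all other numbered genes.

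Genes around the cluster were read from the same fit. Of 22 tested genes within 1 Mb of the outermost Mup genes that are not Mup genes, 2 were called, both lower in KO: Ptbp3, an RNA-binding splicing factor, with a log2 fold change of -0.39 ± 0.09 (SE, edgeR adjusted p = 0.0344), and Susd1 with -0.54 ± 0.13 (edgeR adjusted p = 0.0408). The calls were lost with several single libraries left out (Ptbp3 held in 7 and Susd1 in 2 of 12 fits), WT library 2 or 4 among them. The median of the 22 was 0.02, with 13 positive. Over all genes tested, 1.49% were called lower and 1.15% higher.

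The genes through which growth hormone acts on the liver were read from the same fit. Of 16 genes of this pathway, edgeR called 0 higher and 1 lower, with a median log2 fold change of -0.02. Over all genes it called 1.15% higher and 1.49% lower. At an unadjusted p under 0.05 (edgeR) were 4 of the 16, against 21.2% of all genes. The receptor Ghr (-0.08 ± 0.08), the transcription factor Stat5b (0.00 ± 0.06) and the secreted target Igf1 (-0.04 ± 0.10) all lay close to 0. Prlr, the prolactin receptor, fell: it was at 71.5 ± 13.8 CPM in KO and 151 ± 53.0 in WT, with 6 of 6 KO libraries below every WT library and a log2 fold change of -1.08 ± 0.21 (edgeR adjusted p = 0.0267). Cish, a feedback inhibitor that STAT5 induces, had the largest value of the list, 2.64 ± 0.66, and missed the threshold with edgeR (adjusted p = 0.0570); DESeq2 called it. The Prlr call was lost without KO library 6, WT library 2 or WT library 4. Bcl6, at -1.05 ± 0.40 (edgeR adjusted p = 0.164), and Jak2, at -0.20 ± 0.07 (edgeR adjusted p = 0.130), were not called.

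Of 13 genes for receptors and other transcription factors that act on Mup genes or on sex-biased liver genes, edgeR called 0, with 7 at an unadjusted p under 0.05. Over all genes tested it called 2.64%, with 21.2% at an unadjusted p under 0.05. DESeq2 called 5 and limma-voom 0, where these tools called 8.47% and 2.63% of all genes. The glucocorticoid receptor Nr3c1 had a log2 fold change of -0.26 ± 0.08 and the thyroid hormone receptor Thrb -0.41 ± 0.12. The forkhead factor Foxa2 had 0.57 ± 0.17, and Zhx2, known as a regulator of Mup genes, -0.18 ± 0.08. Adjusted p-values of these 4 ran from 0.0837 for Thrb to 0.227 for Zhx2 (edgeR).

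Mup genes belong to the genes that male livers express more strongly, so other genes of that kind were read beside them. Of 16 male-biased genes outside the family, 13 had a positive log2 fold change, with a median of 0.67. edgeR called 1, with 4 at an unadjusted p under 0.05. Over all genes tested, 50.6% were positive, 2.64% were called and 21.2% were at an unadjusted p under 0.05 (edgeR). The called gene was Elovl3, an elongase of very long chain fatty acids, which rose, with a log2 fold change of 2.17 ± 0.36 (edgeR adjusted p = 0.0176). It was at 417 to 644 CPM in KO and 48.0 to 238 in WT, without overlap, as for 2.53% of genes tested in either direction. Of the 16 genes, 14 were lowest in WT library 2 or 4, as were 14.7% of all genes tested. Of 11 tested female-biased genes, 8 had a negative log2 fold change (median -0.68), and 5 were at an unadjusted p under 0.05 (edgeR). The 1 gene called was Acot3, an acyl-CoA thioesterase of peroxisomes, which fell from 36.6 ± 37.1 CPM in WT to 2.27 ± 1.11 in KO (edgeR adjusted p = 0.0273). It was at 98.2 CPM in WT library 2 and 65.6 in WT library 4, and at 2.10 to 20.3 in the other 4 WT libraries. Cyp2b9, a cytochrome P450 of female liver, was at 198 CPM in WT library 2 and 138 in WT library 4, at 0.727 to 76.6 in the other 4 WT libraries and at 0.334 to 13.8 in KO; the groups overlapped and it was not called (edgeR adjusted p = 0.101). Each of the 4 Mup genes was lowest in 1 of these 2 libraries. Without both, 0 genes of either list were called, Elovl3 included, although Elovl3 stayed called in 12 of 12 fits with 1 library left out. The Acot3 call was lost without any 1 of KO libraries 2, 5 and 6 and WT libraries 2, 4 and 5. Of the 13 female-biased genes in the table, DESeq2 called 4 lower and 1 higher, and limma-voom called 1 higher and 0 lower. Over all genes these tools called 8.47% and 2.63%. The DESeq2 calls include a gene outside the 11 that edgeR tested. Ntrk2, a neurotrophin receptor, had a positive log2 fold change of 1.73 ± 0.47 (edgeR adjusted p = 0.0720) and 4 KO libraries above every WT library.

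Other lipocalins expressed in liver were read as relatives of the Mup genes. Of 10 tested, 6 had a positive log2 fold change, with a median of 0.03. edgeR called 0 (3 at an unadjusted p under 0.05), DESeq2 1 and limma-voom 0. Over all genes these tools called 2.64% (21.2% at an unadjusted p under 0.05 with edgeR), 8.47% and 2.63%. The DESeq2 call was Orm3, lower in KO at -1.61 ± 0.52 (edgeR adjusted p = 0.107), with 6 of 6 KO libraries inside the WT range. Rbp4, the carrier of retinol in blood, was at 0.06 ± 0.10, and Obp2a, an odorant-binding protein, at 1.94 ± 0.79 (edgeR adjusted p = 0.186).

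Markers of liver cells and of the clock were read from the same fit. Over all genes, edgeR called 2.64%, DESeq2 8.47% and limma-voom 2.63%, and 21.2% were at an unadjusted p under 0.05 (edgeR). Hepatocyte markers (9 of 10 tested) summed to 77004 to 105013 CPM in KO and 74896 to 107276 in WT, and edgeR, DESeq2 and limma-voom called 0 of them, with 0 at an unadjusted p under 0.05. All 10 macrophage markers had a negative log2 fold change; 3 fell (Cd5l, Adgre1 and Vsig4), 8 were at an unadjusted p under 0.05, and DESeq2 called 8 lower and limma-voom 3. Their sum was 170 to 335 CPM in KO and 294 to 469 in WT. Of the 10, 8 were highest in WT library 2 or 4, as were 14.3% of all genes tested. Of 15 clock genes, Cry1 rose and Hlf and Tef fell; DESeq2 called 3 higher and 7 lower, and limma-voom 1 higher and 4 lower, without Cry1. The clock sum was 451 to 679 CPM in KO and 689 to 1043 in WT, without overlap. It pools 5 genes with a positive and 10 with a negative log2 fold change. Among single genes tested, the groups did not overlap for 2.53%. With 1 library left out, the edgeR calls held in 10 of 12 fits for Cd5l, 8 for Adgre1, 5 for Vsig4, 8 for Hlf, 5 for Tef and 3 for Cry1, and each was lost without WT library 2 and without WT library 4. The part of these cells and clock genes in the Mup values was not tested. Of 14 markers of other cells, 10 were in the table, summing to 326 to 538 CPM in KO and 306 to 413 in WT, and Adipoq, Amy2a5, Cd3e and Prss1 were not among its rows. Phb, the gene of prohibitin 1, was at 94.2 ± 4.44 CPM in KO and 85.2 ± 3.77 in WT; the deletion is in adipocytes, so its level in liver does not check the labels.

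After each group's mean was subtracted, the libraries still showed how the 4 genes moved against each other. Over the 12 libraries, Pearson's r of log2 CPM was 0.73 for Mup3 and Mup21, 0.52 for Mup3 and Mup6, 0.49 for Mup20 and Mup21, 0.43 for Mup6 and Mup20, 0.39 for Mup3 and Mup20, and 0.18 for Mup6 and Mup21. Mup20 and Mup-ps19, which share sequence, had 0.88, and Mup3 and Mup7 also had 0.88. Within single groups the values could differ widely: Mup3 and Mup20 had -0.01 in KO and 0.65 in WT, Mup6 and Mup20 -0.10 and 0.58, and Mup3 and Mup21 0.58 and 0.88. These are descriptions, since each pair of rows shares its libraries and their depth. The most alike genes were sought among 11544 at 1 CPM or more on average, with Mup genes and predicted, microRNA and pseudogene names left out. Of these, Gjb1, a gap junction protein of hepatocytes, was the most like Mup3 (r = 0.95), followed by Irf5 (0.93), Alas2 (0.93), Obp2a (0.92) and Eed (0.92). For Mup20 these were C8a, a complement component, at 0.93, then Cdh1 (0.92), Abca2 (0.92), Gen1 (0.92) and H13 (0.91). For Mup21 they were Dera (0.89), Cyp4f14 (0.89), Ulk2 (0.88), Tmem260 (0.88) and Gpn1 (0.87). For Mup6, with its few counts, they were Smug1 (0.86), Tyw3 (0.86), Nrp1 (0.85), Glyat (0.82) and Anapc15 (0.81). No gene was among the 5 most alike of more than 1 of the 4.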

How the data were processed

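The 6 KO and 6 WT liver libraries were grouped by their titles. The deposited values were raw read counts (whole numbers), not normalized by the authors, and the authors' log2 fold changes, test score, p-value and mean signal per gene, per the file headers; of these, only log2 fold changes and their errors are printed. Per the submitters' processing notes, FastQC, Trimmomatic, HISAT2, SAMtools, featureCounts, DESeq2 and build GRCm38 were used; no source here gives versions, annotation or strand setting.

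The first row of each of 15140 genes was used; the 204 repeated rows held the same counts. Names and positions came from GENCODE M21 (15127 genes matched; the deposited symbol of Mup16, Mup17 and Mup19 was Mup13). edgeR 4.0.16 (R 4.3.3; TMM, filterByExpr, robust quasi-likelihood F test, two-sided, Benjamini-Hochberg) tested 15000 genes, 396 of them called at 0.05 (3184 at an unadjusted p under 0.05). The SE is the absolute log2 fold change over the square root of F. Of the 30 within-group pairs of libraries, none looked like a duplicate (chi-square per degree of freedom at least 38.5).

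Members and gene lists were chosen with earlier results of these data known. Up to 4 genes per list with the smallest p, fixed regulators, the 5 genes most like each member, and called neighbours within 1 Mb could be named; Rbp4, and Phb as the targeted gene, were chosen outside that rule. The result of 1 fixed regulator is not reported here. For sequence comparisons, the transcript with coding length nearest 543 bases was used, a choice made after seeing odd lengths in 2 genes. Alternatives were DESeq2 1.42.0, limma-voom (limma 3.58.1), RLE factors, total counts, no filter, a replicate block and each library left out. Summing shared rows and leaving out WT libraries 2 and 4 were chosen after seeing the data.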

Additional observations from a re-analysis of the deposited data

Results flagged for a closer look

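In 122 groups of 6 libraries (the numbered Mup genes, up to 4 genes of each list and the fixed regulators, each genotype on its own), 7 had 1 library whose gap to its nearest neighbour took more of the group's range than Dixon's critical value at the 95% level allows; chance alone gives about 6.1. None was a group of Mup3, Mup6, Mup20 or Mup21. The share of the range was 0.637 for Mup19, where KO library 1 was low (others 505 to 1249 CPM). It was 0.694 for Mup17, where KO library 3 was high (5292 CPM, others 2059 to 2749). WT library 2 was low for Mup12 (0.657; 61.6 CPM, others 193 to 350) and for Mup7 (0.680; 1684 CPM, others 4641 to 7481). The other 3 were Jak2, high in KO library 1 (0.675; 21.9 CPM), Apob, high in WT library 1 (0.673; 6562 CPM), and Timd4, low in KO library 2 (0.740; 0.891 CPM).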

How the results depend on the processing

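The log2 fold changes of the 4 genes and of the summed Mup counts kept their sign under DESeq2, limma-voom, RLE factors, total counts, no filter and the replicate block: Mup3 0.04 to 0.06, Mup6 1.41 to 1.51, Mup20 1.17 to 1.33, Mup21 0.52 to 0.63 and the sum 0.53 to 0.62. With 1 library left out, Mup3 ran from -0.04 to 0.18, Mup6 from 1.29 to 1.62, Mup20 from 1.00 to 1.47, Mup21 from 0.24 to 1.10 and the sum from 0.40 to 0.65. Mup3 and Mup21 counts summed gave 0.08. Genes called numbered 396, 1232 with DESeq2, 257 with total counts, and 25 to 700 with 1 library left out, the fewest without WT library 4 and the most without WT library 6 (leaving out WT library 2 gave 46, KO library 6 gave 86, WT library 5 gave 89 and KO library 2 gave 235). Without WT libraries 2 and 4 they were 7, and 0 in each of the growth hormone, upstream factor, male-biased, female-biased and lipocalin lists, with fewer libraries; there the sum was 0.30 and Mup3 -0.09, Mup6 1.15, Mup20 0.81 and Mup21 0.25. DESeq2 called 2 growth hormone genes, 5 upstream factors, 5 female-biased genes and 1 lipocalin. With 1 library left out the counts ran from 0 to 2, 0 to 1, 0 to 3 and 0 to 1 in these lists, and stayed at 1 for male-biased genes. Replicate numbers were not taken as pairs: deviations of same-numbered KO and WT libraries had correlations of -0.19 to 0.36, and 3 of 6 KO libraries (2, 4 and 6) correlated best with the WT library of their number. The replicate block called 374 genes in all, 0 growth hormone genes (Prlr was not called), 1 upstream factor, 2 male-biased and 3 female-biased genes. The causes of these shifts were not tested. The Mup6 values rest on 16 to 111 counts per library, and whether reads of more abundant Mup genes are among them was not tested. Shared reads limit Mup20 and the other numbered genes. Mup5 shares least sequence among the latter, but it has few counts and stray reads were not tested there either.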
